A study of Mus musculus with 44 samples.

Results

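The change in mRNA level upon Mettl3 deletion was measured in BCSP, the bone, cartilage and stromal progenitor, a skeletal progenitor population of the growth plate region. It rests on 4 of the 44 libraries of the study, namely the input RNA libraries of BCSP sorted from Mettl3KO mice (2 libraries) and from WT mice (2 libraries), chosen by the genotype and population in their titles. The study sorted skeletal populations of mouse long bones at postnatal day 3 by FACS, sequenced the input RNA and the RNA captured with an m6A antibody (IP), and compared Mettl3KO with WT mice in SSC (skeletal stem cells), pBCSP (their pre-BCSP progeny) and BCSP. WT mice were Mettl3 fl/fl and Mettl3KO mice were Mettl3 fl/fl;Col2a1-Cre, both on a C57BL/6J background (C57Bl6 in the labels) and untreated, and femurs came from at least 3 independent litters regardless of sex. The Cre recombinase is driven by the Col2a1 promoter, which is active in chondrocytes and in skeletal progenitors of the growth plate, so that cells around BCSP could also have lost Mettl3. All libraries carry wild type in their genotype label, and Mettl3KO was therefore read from the titles. The study describes its sequencing replicates of these populations as biologically independent experiments, and nothing in the labels ties a library to single animals.

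METTL3 is the catalytic subunit of the methyltransferase complex that places N6-methyladenosine (m6A) on mRNA. Reader proteins of the YTH family bind the mark, and YTHDF2 directs marked transcripts to decay, so that loss of the mark can lengthen or shorten the life of a transcript depending on its reader. BCSP arise from SSC through pBCSP and give rise to cartilage, bone and stromal lineages. In bulk libraries, fewer cells of a type and less RNA per cell cannot be told apart.

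Each BCSP input library held between 30050178 and 33711097 counts. Levels are given in normalised counts scaled to library size (CPM), where 3 counts, the limit that a count of 0 allows, corresponded to 0.0853 to 0.104 CPM, and these limits cover counting error only. Chondrocyte genes were abundant in all 4 libraries, with Col2a1, the collagen of cartilage, between 61118 and 81341 CPM and Sox9, the master factor of chondrocytes, between 4432 and 5542 CPM. Of the antigens of the sort, Itgav (CD51) measured 38.9 to 64.3 CPM, Eng (CD105) 107.8 to 141.0 CPM and Cd200 152.8 to 253.9 CPM, whereas Ptprc (CD45) had no count in any library and Thy1 stayed at or below 0.35 CPM. None of the 5 antigens tested passed the call. Each genotype held 1 library high in Xist (250.6 CPM in WT replicate 1 and 139.97 CPM in Mettl3KO replicate 2) and 1 high in Ddx3y (117.5 CPM in WT replicate 2 and 130.8 CPM in Mettl3KO replicate 1). Across genes, replicates correlated at r = 0.925 (WT) and 0.913 (Mettl3KO), and libraries of different genotype at 0.899 to 0.912.

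The deleted gene was examined first. Mettl3 (ENSMUSG00000022160.18, chr14:52294841-52305128 of GRCm38, minus strand) measured 17.5 and 19.3 CPM in the WT libraries and 15.9 and 17.3 CPM in the Mettl3KO libraries. Its log2 fold change, Mettl3KO over WT, was -0.15 (SE 0.29, adjusted p = 0.901), so that the level of Mettl3 mRNA did not check the genotype label of these libraries. The study reports the deletion by qRT-PCR and, in SSC, by western blot. It also reports lower m6A levels upon Mettl3 loss in SSC, pBCSP and BCSP. A deletion of part of the gene can leave the count of the whole gene unchanged, and Mettl3KO here stands for the libraries labelled so, on which every direction below rests.

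A gene was called higher or lower where its log2 fold change exceeded 0.5 in size and its unadjusted p from the edgeR quasi-likelihood test was under 0.05, the thresholds of the study's methods, and the words rose and fell are used of such genes only. Of 16322 genes tested, 1178 rose (7.22%) and 933 fell (5.72%). The median change of the genes that rose was 0.999 and of those that fell -0.999 on the log2 scale, and 588 and 466 of them went beyond 2-fold. Protein-coding genes made up 1105 of the genes that rose and 798 of those that fell. No gene passed an adjusted p of 0.05 (Benjamini-Hochberg) in edgeR in either direction, where 1188 genes higher and 935 lower had an unadjusted p under 0.05 and the smallest adjusted p was 0.174. DESeq2 called 346 higher and 234 lower at an adjusted p under 0.05, and limma-voom 7 and 6. Without WT replicate 1 the number of genes that fell dropped from 933 to 485, and the number that rose lay between 959 and 1105 without each library in turn. Of the 2111 genes called, 414 were called in the same direction under every alternative test, scaling and filter that kept the 4 libraries and also without each library in turn.

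**Figure D1:**
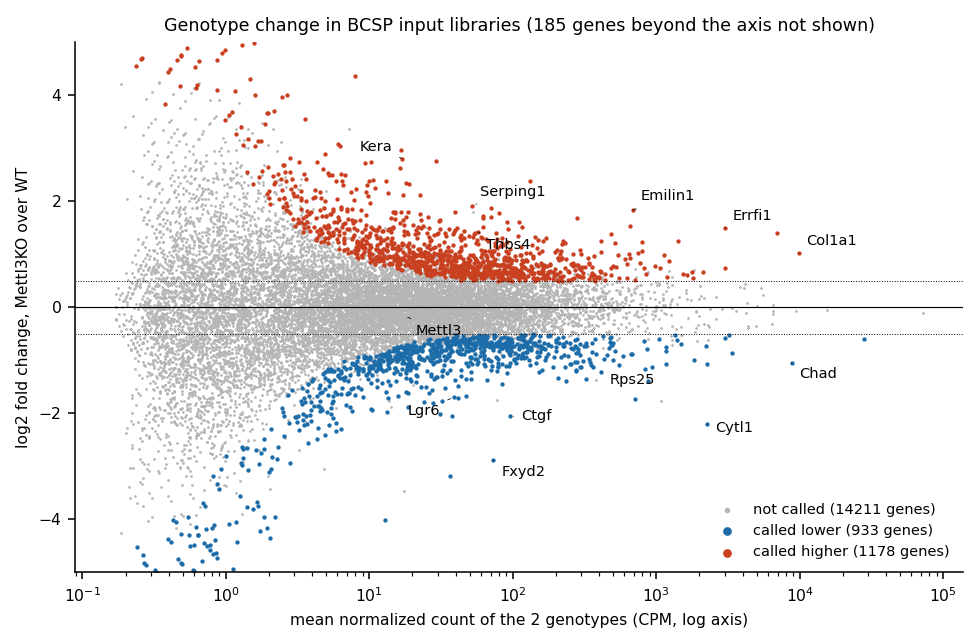
Log2 fold change of each gene, Mettl3KO over WT, in BCSP input libraries (vertical axis) against the mean normalised count of both genotypes (CPM, horizontal log axis). Each point is 1 gene, with the 1178 genes called higher in red, the 933 called lower in blue and the others in grey, and 185 genes lay beyond the axis. Called genes lie on both sides at all levels and the cloud is centred near 0, the median over all genes being -0.01.

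The genes of smallest p that rose included extracellular and signalling genes. Serping1 (ENSMUSG00000023224.12, chr2:84765387-84775444), the inhibitor of complement C1, measured 22.7 and 20.7 CPM in WT and 74.2 and 90.7 CPM in Mettl3KO, a log2 fold change of 1.92 (SE 0.24, adjusted p = 0.174). Kera (ENSMUSG00000019932.8, chr10:97606879-97613692), a keratan sulfate proteoglycan of cornea and tendon, went from 3.7 and 4.7 CPM to 35.7 and 23.6 CPM (2.81, SE 0.37). Errfi1, which inhibits EGF receptor kinases, was abundant and rose from 1593 and 1545 CPM to 4284 and 4610 CPM (1.503, SE 0.20). In these 3 genes both Mettl3KO libraries lay above both WT libraries, which the choice of the genes of smallest p required. Ddit4l, an inhibitor of mTORC1 signalling, rose by 2.39 (SE 0.34) from 56.0 and 29.0 CPM to 243.9 and 201.0 CPM. Emilin1, a glycoprotein of elastic fibres, rose by 1.84 (SE 0.27), Epha2, an ephrin receptor, by 1.61 (SE 0.23), and Map1b, which binds microtubules, by 1.72 (SE 0.23). Steap3, an endosomal ferrireductase, rose by 2.11 and Fgl2, a secreted fibrinogen-like protein, by 2.76. Arc, known as an activity-regulated gene of neurons, rose from 280.6 and 395.0 CPM to 1028 and 937.6 CPM. Tmem95, a sperm membrane protein, and Nipal1, a magnesium transporter, completed the 12 protein-coding genes of smallest p, at 2.75 and 1.66.

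The genes of smallest p that fell included chondrocyte and translation genes. Fxyd2 (ENSMUSG00000059412.7, chr9:45399669-45410278), a regulatory subunit of the sodium pump, measured 156.4 and 101.9 CPM in WT and 13.2 and 21.7 CPM in Mettl3KO, a change of -2.89 (SE 0.34, adjusted p = 0.174). Cytl1 (ENSMUSG00000062329.4, chr5:37735519-37739820), a secreted protein of chondrocytes, fell from 3275 and 4182 CPM to 628.7 and 990.5 CPM (-2.20, SE 0.28). Lgr6, a receptor for R-spondins that strengthens Wnt signalling, measured 58.6 and 60.7 CPM in WT and 20.2 and 16.8 CPM in Mettl3KO (-1.69, SE 0.24). The genotypes did not overlap in any of these, which the choice of the genes required. Gadd45g, a growth arrest and stress protein, fell by 1.72 on the log2 scale, Atoh8, a helix-loop-helix factor, by 1.49, and Rnf144b, a ubiquitin ligase, by 1.87. Bpifb1, a secreted BPI fold protein, fell from 124.2 and 122.3 CPM to 46.0 and 44.8 CPM. Sod1, which removes superoxide, went from 298.2 and 336.3 CPM to 152.3 and 137.7 CPM, and S100b, a calcium-binding protein of chondrocytes and Schwann cells, fell by 1.24. Rps25, a small-subunit ribosomal protein, fell by 1.22 and Eef1b2, a translation elongation factor, by 1.18. Car3, a carbonic anhydrase, fell by 1.78, a call that was lost (at -1.78) in the fit over 12 input libraries.

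**Figure D2:**
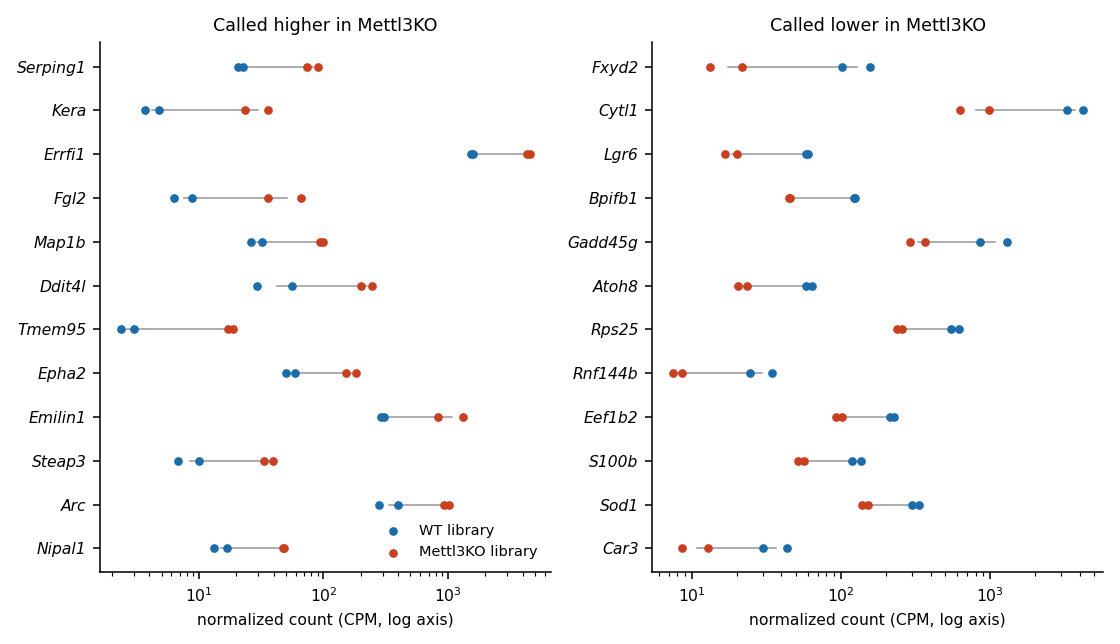
Normalised counts (CPM, log axis) of the 12 protein-coding genes of smallest p in each direction, in each WT (blue) and Mettl3KO (red) library of BCSP input, with a line between the genotype means. Red and blue points do not overlap for any of the 24 genes, which the choice of the genes required.

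Genes that the study names in SSC were then read in BCSP. It links Mettl3 to SSC quiescence through Fem1b and Gli1. In Mettl3KO SSC it reports Fem1b, Ube2h and Cdk6 as higher and Bglap, Mgp and Id2 as lower. By qRT-PCR it also reports Cdk4, Ccnd1, Ccne1 and Ccne2 as higher there. In osteogenic culture of Mettl3KO SSC it reports Col1a1 as lower. For Gli1 it reports less protein without a difference in mRNA in Mettl3KO SSC, and RNA counts do not measure protein. Klf4 and Foxc1 were compared in the study between SSC and the Thy population. Fem1b, the substrate receptor of a Cullin-2 ubiquitin ligase, measured 32.6 and 40.5 CPM in WT and 47.8 and 44.8 CPM in Mettl3KO, a change of 0.34 (SE 0.24, adjusted p = 0.619). Gli1, a transcription factor and target of Hedgehog signalling, measured 19.5 and 18.1 CPM against 14.6 and 17.5 CPM (-0.23, SE 0.30, adjusted p = 0.831). The libraries of the genotypes did not overlap for either gene, which held for 22.8% of all genes in each direction, and neither passed the call. Of 15 Hedgehog genes 1 rose and 1 fell, beside 7.22% and 5.72% of all genes. The effector Gli2 fell by 0.92 on the log2 scale, a call lost without WT replicate 2 (-0.83) and without Mettl3KO replicate 1 (-0.64). The Hedgehog genes that rose were 2 and those that fell 4 without Mettl3KO replicate 2, and none rose without WT replicate 2 or Mettl3KO replicate 1. Ube2h, a ubiquitin-conjugating enzyme, rose from 57.9 and 73.7 CPM to 114.3 and 110.2 CPM (0.77, SE 0.23), although the call was lost without WT replicate 1 (0.61). Klf4, a zinc-finger factor, fell by 0.86 on the log2 scale and lost the call without Mettl3KO replicate 1 (-0.64). Foxc1, a forkhead factor, fell by 1.38 and lost it without WT replicate 1 (-0.94).

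Of the m6A machinery, 1 of 9 writer genes tested rose (Mettl16) and none fell, where 7.22% of all genes rose and 5.72% fell, with a median log2 fold change of 0.45 against -0.01 over all genes. Mettl16 lost its call without each library in turn (0.46 to 0.77). Of 13 readers and erasers 2 rose (Ythdf2 and Igf2bp1) and none fell, with a median of 0.23. Igf2bp1 lost its call without WT replicate 1 (1.09) and without Mettl3KO replicate 2 (0.63). No writer rose without WT replicate 2 or Mettl3KO replicate 2, and 2 rose without WT replicate 1. Of the readers and erasers 4 rose without WT replicate 2 or Mettl3KO replicate 1 and 1 without either other library. Ythdf2, the reader that recruits a deadenylase to methylated mRNA, rose from 137.0 and 146.6 CPM to 272.7 and 268.9 CPM (0.93, SE 0.20, adjusted p = 0.209). Both Mettl3KO libraries lay close together. They lay above both WT libraries, which held for 22.8% of all genes.

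In the cell cycle, 8 of 25 genes of mitosis rose. Of 21 cyclins, kinases and inhibitors of the G1 phase 1 rose and 1 fell, with a median of -0.02. The G1 member that rose was Ccne1. Ccne1 (ENSMUSG00000002068.16, chr7:38097984-38107534), the cyclin E that activates CDK2, measured 10.8 and 13.3 CPM in WT and 48.3 and 30.3 CPM in Mettl3KO, a change of 1.71 (SE 0.32, adjusted p = 0.206). Cdk6, a kinase of the G1 phase, was spread over 217.6 and 107.7 CPM in WT and 172.8 and 172.2 CPM in Mettl3KO (0.09, SE 0.33, adjusted p = 0.959), so that the WT libraries lay on both sides of the Mettl3KO libraries, and its sign turned to -0.34 without WT replicate 2. Cdk4 was at -0.23, Ccnd1 at 0.07 and Ccne2 at 0.24, none of them called. Ccnd3, a D-type cyclin, fell by 0.55, a call lost without WT replicate 2 (-0.36) and without either Mettl3KO library (-0.50 and -0.60). Without each library in turn 2 to 3 G1 genes rose and at most 1 fell. None of the mitosis genes fell and 8 rose (background 5.72% and 7.22%), with a median of 0.79 and 24 members above 0. Ccnb1, cyclin B1, went from 19.8 and 18.1 CPM to 59.0 and 46.5 CPM (1.48, SE 0.25). Tpx2, a spindle assembly factor, rose by 1.51 and Aurkb, the kinase of the chromosomal passenger complex, by 1.44. Top2a, the topoisomerase of mitotic chromosomes, rose by 1.10, a call lost without Mettl3KO replicate 1 (0.84). The number of mitosis genes called was 12 without WT replicate 1, 5 without WT replicate 2 and 4 without Mettl3KO replicate 1, and their summed level was 368.8 and 275.0 CPM in WT against 627.3 and 471.4 CPM in Mettl3KO. Of 25 S phase genes 2 (Mcm5 and Mcm7, of the replicative helicase) rose and none fell, with a median of 0.22, and without WT replicate 2 or Mettl3KO replicate 1 none rose.

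Genes of the translation and respiration machinery were lower. Of 87 cytosolic ribosomal protein genes tested (4 more were below the count filter) 64 fell and none rose, where 5.72% of all genes fell, and 84 lay below 0 with a median of -0.77. Rpl10 fell from 350.8 and 235.4 CPM to 112.4 and 121.9 CPM (-1.32, SE 0.25), and Rps18 from 571.3 and 424.8 CPM to 223.6 and 236.7 CPM. Both encode structural proteins of the ribosome, and both Mettl3KO libraries lay below both WT libraries, as they did for 22.8% of all genes and 77 of the 87 members. The summed level of the list was 22738 and 16459 CPM in WT and 10653 and 12008 CPM in Mettl3KO. The count of members that fell depended on the libraries, with 20 without WT replicate 1, 75 without WT replicate 2, 37 without Mettl3KO replicate 1 and 52 without Mettl3KO replicate 2, while the median stayed between -1.03 and -0.45. Ribosomal protein genes have many near-identical processed copies in the genome, and how reads were divided among them is not given in the sources used here.

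Of 73 nuclear genes of oxidative phosphorylation 23 fell and none rose, with a median of -0.50, where 5.72% of all genes fell and 7.22% rose. The same background holds for the mitochondrial and histone lists below. Ndufs7, a core subunit of complex I, fell from 90.4 and 85.2 CPM to 35.5 and 46.6 CPM (-1.10, SE 0.24). The number that fell was 2 without WT replicate 1, 40 without WT replicate 2 and 4 without Mettl3KO replicate 2. Of 14 transcripts of the mitochondrial genome 5 fell, all 14 lay below 0 and the median was -0.61, with 2 called without WT replicate 1 and 1 without Mettl3KO replicate 1. The mitochondrial 12S ribosomal RNA mt-Rnr1 fell from 156.8 and 116.4 CPM to 56.3 and 80.3 CPM. Of 39 histone genes 5 fell, with a median of -0.88, and the count was 1 without WT replicate 1, 3 without WT replicate 2 or Mettl3KO replicate 1 and 13 without Mettl3KO replicate 2. Hist1h1c, a linker histone, fell by 1.22 but not without WT replicate 1 (-0.70).

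Gene length moved with this change. The median log2 fold change was -0.45 for the 395 genes with exons of up to 500 bases, -0.35 for 500 to 1000 bases, -0.18 for 1000 to 2000 bases, 0.00 for 2000 to 4000 bases and 0.09 for 4000 to 8000 bases. It was 0.01 for the 2472 genes over 8000 bases. The median exonic length was 1734 bases for the ribosomal protein list and 1696.5 bases for oxidative phosphorylation. Both lengths lie in the class with a median of -0.18. When ribosomal protein, mitochondrial, oxidative phosphorylation and histone genes were left out, the 1066 genes shorter than 1000 bases still had a median of -0.35 against 0.02 for the 14490 longer genes, and 5.53% of the short and 5.18% of the long genes fell. Among genes of these that reached 100 CPM in a genotype, 33.3% of the 18 short genes fell (median -0.54), and 7.72% of the 1723 long genes (median 0.08). The part of gene length in the lower ribosomal and respiratory transcripts was not tested.

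**Figure D3:**
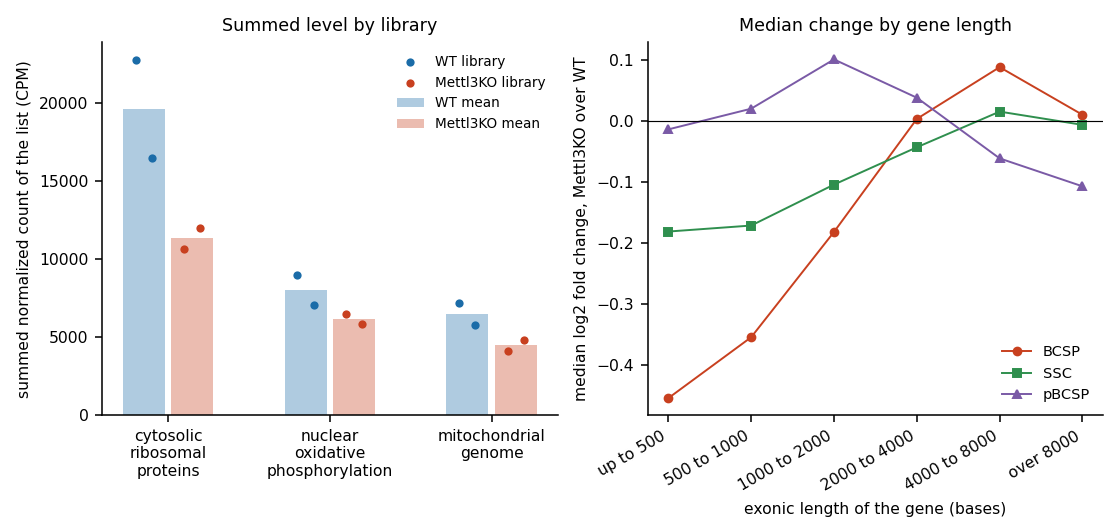
Left, summed normalised count (CPM) of 3 gene lists in each BCSP input library (points) with genotype means (bars from 0), WT in blue and Mettl3KO in red. Ribosomal protein transcripts sum to 22738 and 16459 CPM in WT and to 10653 and 12008 CPM in Mettl3KO. Right, median log2 fold change by exonic length class in BCSP, SSC and pBCSP, which in BCSP runs from -0.45 in the shortest class to 0.09 at 4000 to 8000 bases.

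Stress response genes were higher in part. Of 22 genes of the integrated stress response and unfolded protein response 8 rose and 1 fell (background 7.22% and 5.72%), with a median of 0.42, and 7 to 9 rose without each library in turn. Pdia4, a disulfide isomerase of the endoplasmic reticulum, went from 238.5 and 291.4 CPM to 774.0 and 614.8 CPM (1.39, SE 0.23). Hspa5, the chaperone BiP, was among the most abundant members and went from 2173 and 2368 CPM to 3780 and 3798 CPM (0.74, SE 0.20). Psat1, an enzyme of serine synthesis, rose by 1.30, Trib3, a pseudokinase induced by ATF4, by 1.16, Sesn2, which senses leucine, by 1.01, and Chac1, which degrades glutathione, by 0.87. For Trib3 the libraries measured 44.7 and 47.9 CPM in WT and 114.3 and 92.2 CPM in Mettl3KO. Calr, the lectin chaperone calreticulin, rose by 0.76, a call lost without WT replicate 2 (0.62) and without Mettl3KO replicate 1 (0.38). Atf3, a transcription factor of the same response and of the immediate early response, went the other way, from 376.5 and 393.7 CPM to 180.2 and 231.2 CPM (-0.90, SE 0.22). Without WT replicate 2 the number of members that fell was 4.

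Promoters of these genes are shown because 9 of the 22 members were called and the elements of both arms of the response are short and well known. In RefSeq promoter windows of GRCm38.p6, 300 bases around the start, TGATGNAA, the C/EBP-ATF element read on both strands, was found in 6 of the 21 members with a window, in 2.67% of the genes tested and in 3.97% of 32841 promoters. The ER stress element, CCAAT and CCACG separated by 9 bases and likewise read on both strands, was found in 4 of 21 members, in 0.187% of the genes tested and in 0.119% of promoters. Capitals mark the match, which is a description of the letters and not a site in use. The first 3 lines hold the C/EBP-ATF element in genes that rose (Chac1 and Trib3) and in the gene that fell (Atf3), and the other 2 the ER stress element.
Chac1, chr2:119351039-119351066, plus strand: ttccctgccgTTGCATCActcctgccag
Trib3, chr2:152344029-152344056, minus strand: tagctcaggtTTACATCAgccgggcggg
Atf3, chr1:191183426-191183453, minus strand: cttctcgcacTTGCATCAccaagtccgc
Hspa5, chr2:34772021-34772048, plus strand: ttcaCCAATCGGAGGCCTCCACGacggg
Calr, chr8:84847070-84847097, minus strand: aacgCGTGGTCGACCCTCATTGGcccat
In all lines but that of Hspa5 the capitals are the reverse complement of the element. Of the 8 members that rose, 2 held the first element and 2 the second.

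Interferon response genes were higher in part, mostly at low levels. Of 24 members tested 5 (Ifit2, Ifit3, Ifit3b, Gbp2 and H2-K1) rose and none fell (background 7.22% and 5.72%), with a median of 0.53, and 10 rose without WT replicate 1. Ifit3, an antiviral protein with tetratricopeptide repeats, measured 2.8 and 6.3 CPM in WT and 31.7 and 25.0 CPM in Mettl3KO (2.64, SE 0.45). Its close copy Ifit3b measured 1.7 and 1.5 CPM against 11.6 and 6.1 CPM, and reads shared by the copies could have been divided between them. Ifit2 had 20 and 0 counts in WT and 173 and 143 counts in Mettl3KO (4.01, SE 1.39). Gbp2, a guanylate-binding protein, rose by 2.21, and its call was lost in the fit over 12 input libraries (at 2.21). H2-K1 lost its call in that fit (0.66), with library size alone (0.67) and with upper quartile factors (0.63). The same held for TMM without mitochondrial and ribosomal protein genes (0.65). Without each library in turn H2-K1 ranged from 0.34 to 1.07, and it kept the call only without WT replicate 1. The interferon-stimulated element, GAAA repeated after 2 bases and read on both strands, was found in 10 of 19 members with a promoter window, in 3.45% of the genes tested and in 3.44% of all promoters, and 3 of the 5 members that rose held it. It is shown for Ifit3 and Gbp2, in capitals and as the reverse complement.
Ifit3, chr19:34583364-34583391, plus strand: agtggtaagTTTCACTTTCctcttctgg
Gbp2, chr3:142620595-142620622, plus strand: ctcttttagTTTCACTTTCactgtctta
The window of Ifit3b at chr19:34607760-34607787 had the same letters as that of Ifit3.

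Other stress and lipid lists were less stable, and of all genes 7.22% rose and 5.72% fell. Of 18 p53 targets 5 rose, with 2 called without WT replicate 2 and 2 without Mettl3KO replicate 2, and Aen, a nuclease induced by p53, rose from 54.5 and 50.7 CPM to 98.3 and 91.3 CPM. Of 21 genes of cholesterol synthesis and uptake 4 rose, and the count was 12 without WT replicate 1 and 1 without WT replicate 2 or Mettl3KO replicate 1. The sterol element, ATCAC and CCAC separated by 1 base and read on both strands, was found in 0 of 14 members with a window and in 0.232% of the genes tested. Of 22 immediate early genes 9 fell and 2 rose (5 without WT replicate 2, none without WT replicate 1 or Mettl3KO replicate 2), with a median of -0.43, and Fos, a subunit of AP-1, went from 3703 and 4948 CPM to 2327 and 2429 CPM. Ier2 fell in the same way, from 2499 and 3028 CPM to 1662 and 1685 CPM.

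Cartilage matrix genes were lower in part. Of 24 members 7 fell and none rose (background 5.72% and 7.22%), with a median of -0.12 and 18 below 0, and 5 to 7 fell without each library in turn. Chad (ENSMUSG00000039084.8, chr11:94565047-94569127), chondroadherin, which binds chondrocytes to collagen, measured 12890 and 10739 CPM in WT and 5290 and 6168 CPM in Mettl3KO (-1.04, SE 0.21, adjusted p = 0.206). Prg4, the lubricin of superficial cartilage, went from 1134 and 1407 CPM to 384.8 and 583.1 CPM (-1.39, SE 0.26), and Scrg1, a secreted chondrocyte protein, fell by 0.76. With Cytl1 these made the 4 members of smallest p. The major fibrillar collagen gene Col2a1 was not called and stood at -0.10 (SE 0.22, adjusted p = 0.912), and Acan, the proteoglycan aggrecan, was at -0.52 (SE 0.29) without passing the call. Mgp, the matrix Gla protein that inhibits mineral deposition, fell from 1400 and 915.4 CPM to 432.4 and 606.8 CPM. Slc37a2, a sugar phosphate transporter and the sole member of 10 hypertrophic genes called, had 58 and 93 counts in WT and 0 and 0 in Mettl3KO. Of those 10 genes 4 fell without WT replicate 2 and 2 without Mettl3KO replicate 2. Sox11, a factor of early mesenchyme, rose from 133.0 and 148.7 CPM to 271.2 and 316.6 CPM, while Sox9 differed by 0.03 (SE 0.21).

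Genes of tendon, joint and perichondrial tissue were higher in part. Of 20 members 9 rose and 1 fell (background 7.22% and 5.72%), with a median of 0.86, and 8 to 10 rose without each library in turn. Next to Kera, Thbs4, a thrombospondin of tendon matrix (ENSMUSG00000021702.7, chr13:92751590-92794818), measured 28.5 and 33.4 CPM in WT and 76.3 and 89.8 CPM in Mettl3KO (1.43, SE 0.24, adjusted p = 0.189). Pi16, a marker of adventitial fibroblasts, went from 1.1 and 0.31 CPM to 9.7 and 20.5 CPM (4.37, SE 0.73). Igf1, the growth factor, rose from 24.0 and 24.9 CPM to 57.6 and 67.8 CPM (1.36, SE 0.23). The summed level of the list overlapped between genotypes (13286 and 14470 CPM in WT, 16926 and 13559 CPM in Mettl3KO). Its members ranged from -1.61 to 4.37 on the log2 scale, with 4 of them below 0. Prg4 of superficial cartilage, which fell, was counted with cartilage matrix and not in this list. Col1a1 (ENSMUSG00000001506.10, chr11:94936224-94953042), the main collagen chain of bone and tendon, rose from 6127 and 6852 CPM to 16102 and 10298 CPM (1.02, SE 0.26). Bglap, osteocalcin of mature osteoblasts, ranged widely, at 101.4 and 19.4 CPM in WT and 23.6 and 5.8 CPM in Mettl3KO. It fell by 2.04, but the genotypes overlapped and the call was lost without WT replicate 1 (-0.40) and in DESeq2 (-2.03). Timp3, an inhibitor of matrix proteases, rose from 529.6 and 452.5 CPM to 1050 and 953.6 CPM, 1 of 4 members of 17 in its list that rose (2 without Mettl3KO replicate 2).

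Signalling lists were mixed. Of 28 BMP genes 6 fell and 1 (the antagonist Chrdl1) rose, beside 5.72% and 7.22% of all genes, with a median of -0.26 and 12 members above 0, and 5 to 7 fell without each library in turn. Id2 (ENSMUSG00000020644.9, chr12:25093799-25097140), an inhibitor of helix-loop-helix factors and a direct BMP target, measured 521.9 and 410.4 CPM in WT and 146.3 and 220.5 CPM in Mettl3KO (-1.35, SE 0.27, adjusted p = 0.206). Id3 fell from 453.9 and 501.8 CPM to 174.3 and 273.3 CPM (-1.09, SE 0.26). Smad7, the inhibitory Smad, fell by 1.18 and Smad9, a receptor-activated Smad, by 2.49. The call of Chrdl1 was lost without WT replicate 2 (0.82) and without Mettl3KO replicate 1 (0.43). None of the BMP ligands or receptors on the list was called. The GC element GGCGCC, bound by Smads and read on both strands, was found in 9 of 19 members with a window and in 23.8% of the genes tested, and 3 of the 4 members with a window that fell held it. In the TGF-beta list 3 of 17 members rose and 2 fell (background 7.22% and 5.72%). Ctgf, a known target, measured 159.6 and 147.8 CPM in WT and 30.5 and 43.4 CPM in Mettl3KO (-2.06, SE 0.25). The members of that list that rose were the ligands Tgfb2 and Tgfb3 and the receptor Tgfbr2. Each lost its call without Mettl3KO replicate 2 (0.52, 0.65 and 0.60). Tgfbr2 also lost it without each other library (0.49 to 0.62). Tgfb2 lost it without WT replicate 2 (0.33) and Mettl3KO replicate 1 (0.69), and Tgfb3 without WT replicate 1 (0.41).

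The FGF, Notch and IGF lists had calls in both directions, beside 7.22% and 5.72% of all genes. Of 16 FGF genes 3 rose and 2 fell, of 11 Notch genes 1 rose and 1 fell, and of 20 IGF and imprinted growth genes 3 rose and 3 fell. Without each library in turn 1 to 3 FGF, 0 to 2 Notch and 2 to 5 IGF genes rose, and 1 to 2, 1 to 2 and 2 to 5 fell. Fgfr3, the FGF receptor that restrains chondrocyte proliferation, fell from 462.5 and 454.7 CPM to 232.2 and 278.2 CPM (-0.85, SE 0.21), whereas Dusp6, a phosphatase induced by FGF signalling, rose from 74.2 and 92.3 CPM to 145.7 and 157.3 CPM (0.86, SE 0.22). The other FGF members called were Fgf7 and Spry2 (higher) and Fgfrl1 (lower), each lost without WT replicate 2 and Mettl3KO replicate 2. Hes1, a repressor and target of Notch, went from 158.5 and 163.6 CPM to 93.1 and 76.3 CPM, and the receptor Notch1 rose by 0.90, a call lost without Mettl3KO replicate 2 (0.46) and without either WT library (0.84 and 0.96). Igfbp3, which binds IGFs in the circulation, rose by 1.46, and the imprinted long noncoding RNA H19 fell by 0.98, from 2513 and 2382 CPM to 856.8 and 1620 CPM. Leaving out each library in turn moved Igfbp3 between 0.93 and 1.84 and H19 between -1.51 and -0.60. Next to Igf1, the other members called were Igfbp6 (higher), Igfbp7 and Meg3 (lower), each lost without Mettl3KO replicate 2. Of 22 nuclear long noncoding RNAs and snoRNA hosts 1 (Snhg11) rose and 3 (Neat1, Meg3 and Snhg18) fell, the first from 0 counts in both WT libraries, and apart from Neat1 each call was lost without Mettl3KO replicate 2. Neat1, the noncoding RNA of paraspeckles, fell from 349.6 and 333.4 CPM to 161.3 and 164.1 CPM (-1.07, SE 0.20).

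**Figure D4:**
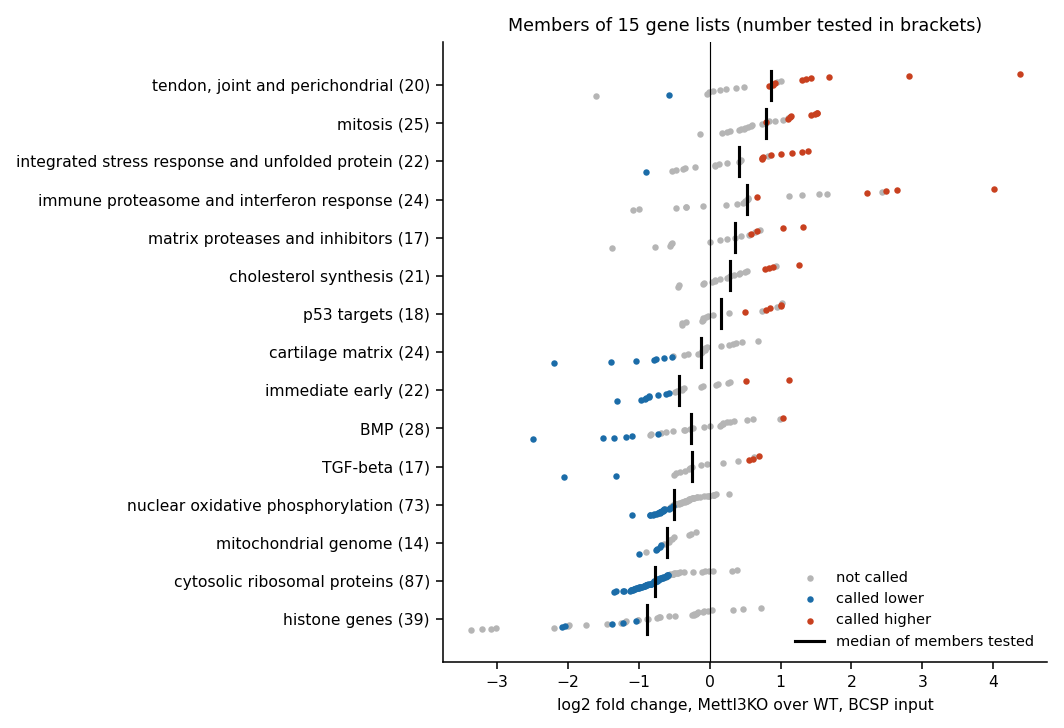
Log2 fold change, Mettl3KO over WT, of each tested member of 15 gene lists in BCSP input libraries, with called members in red (higher) or blue (lower), others in grey, and the median of the members as a black bar. Medians run from 0.86 for tendon, joint and perichondrial genes to -0.88 for histone genes, and the ribosomal protein list sits almost wholly below 0.

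Markers of cells outside the BCSP gate were partly higher in Mettl3KO, and the counts below stand beside 7.22% of all genes that rose and 5.72% that fell. Of 8 erythroid markers tested 3 rose and 1 fell (Klf1, not called without WT replicate 1, WT replicate 2 or Mettl3KO replicate 1). Hbb-bs, a beta-globin, had 2 and 0 counts in WT and 120 and 54 in Mettl3KO, and Hba-a1, an alpha-globin with a near-identical copy, 5 and 31 counts against 273 and 133. The summed erythroid level was nevertheless 46.1 and 41.5 CPM in WT and 59.1 and 37.7 CPM in Mettl3KO. Of 11 markers of pericytes, smooth muscle and stroma tested 4 rose, led by Rgs5 at 53.6 and 18.4 CPM in WT and 160.4 and 88.4 CPM in Mettl3KO, and the list summed to 653.0 and 486.5 CPM against 776.9 and 754.5 CPM. Tagln, a smooth muscle gene of that list, had 0 counts in all 4 libraries and was not tested. Of 9 nerve and Schwann markers 1 (Mbp) rose and 1 (S100b) fell, with a median of 1.21 and 7 members not overlapping and higher in Mettl3KO, beside 22.8% of all genes. Of 5 muscle markers 2 (Des and Acta1) rose and 1 (Tnnt3) fell, with a median of 1.12, and of 14 endothelial markers 1 (Flt1) rose, with a median of 0.40. Except for S100b, each of these calls was lost without 1 library or more, and without WT replicate 1 the members that rose were 4 nerve and Schwann and 3 endothelial markers. The lists summed to 326.9 and 357.8 CPM in WT and 353.6 and 351.7 CPM in Mettl3KO for nerve and Schwann, 59.3 and 60.2 against 59.2 and 46.9 CPM for muscle, and 100.4 and 48.9 against 103.7 and 79.2 CPM for endothelium. None of 11 myeloid and lymphoid, 3 osteoclast or 7 adipocyte markers tested was called, and the first summed to 28.7 and 19.5 CPM in WT and 24.5 and 46.6 CPM in Mettl3KO. The part of these cells in the higher tendon, stromal and interferon genes was not tested.

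The same genotype comparison in SSC and pBCSP used other libraries, sorted from mice of the same genotypes. In SSC 6.96% of genes were called higher and 7.07% lower, and in pBCSP 3.88% and 4.48%. The genes that rose in BCSP had a median change of 0.55 in SSC and 0.39 in pBCSP, and those that fell -0.55 and -0.32, against -0.03 and -0.02 over all genes. Of the 1094 genes that rose in BCSP and were tested in all 3 populations, 155 were also called higher in both others and 602 in neither. Cytl1 was at -2.25 in SSC and -2.31 in pBCSP, close to its -2.20 in BCSP, and Ccne1 at 1.23 and 1.38. Id2 was likewise lower in both, at -1.05 and -0.93.

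Whether a change differed in BCSP was tested as the BCSP change minus the mean of the SSC and pBCSP changes, over 12 input libraries and 18655 genes. The difference was called higher for 617 genes (3.31%) and lower for 389 (2.09%), and the latter number was 209 without WT replicate 1 of BCSP. At an adjusted p under 0.05 in edgeR 1 gene (0.00536%) passed, Thbs4 (adjusted p = 0.0364). Thbs4 measured 26.2 and 30.8 CPM in WT and 13.4 and 10.4 CPM in Mettl3KO SSC, 115.4 and 123.1 CPM against 83.0 and 95.8 CPM in pBCSP, and 28.6 and 33.5 CPM against 76.1 and 89.8 CPM in BCSP. It thus rose in BCSP and fell in SSC, and the difference was 2.26 (SE 0.27). The adjusted threshold was missed with library size scaling alone (0.0513), with a replicate block (0.0746) and without each replicate in turn (0.0964 to 0.549). In DESeq2 15 genes higher and 3 lower passed it.

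By unadjusted p, Egfl6, a matrix protein with EGF repeats, differed by 2.88 (SE 0.42), with 6.9 and 9.9 CPM in WT and 26.6 and 31.6 CPM in Mettl3KO BCSP where SSC and pBCSP were at -1.57 and -0.62. Cdh11, the cadherin of mesenchymal cells, rose in BCSP from 9.5 and 7.5 CPM to 29.1 and 26.4 CPM and stood at -0.05 in both other populations. Cilp, a cartilage intermediate layer protein, did not pass the call in BCSP (0.49, SE 0.25), and its difference of 1.88 came with -2.05 in pBCSP. Chodl, a membrane lectin, rose by 3.08 in BCSP from 1.0 and 1.6 CPM to 6.0 and 15.7 CPM. In pBCSP Chodl was at 0.93, with 15.4 CPM in Mettl3KO replicate 2. Its difference of 7.18 (SE 1.24) came with 0 CPM in both Mettl3KO SSC libraries, against 2.0 and 2.5 CPM in WT SSC. In the lower direction, Rps25 differed by -0.81 (SE 0.23) and Ift20, a protein of ciliary transport, by -0.95 (SE 0.27), and both fell in BCSP. The noncoding RNA 9530059O14Rik fell in BCSP from 5.4 and 2.9 CPM to 0.28 and 0.26 CPM. Slc46a1, a folate transporter, fell by 1.19 in BCSP, a call lost without WT replicate 1 (-1.001) and without Mettl3KO replicate 1 (-0.82). Fbxl12os was at -1.17 in BCSP (SE 0.50), short of the call, and is annotated antisense to another gene, and the strand setting of the counting is not given. The methods describe a Smart-seq2 based protocol with Tn5, which does not mark strand, while a stranded kit is listed among the reagents.

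**Figure D5:**
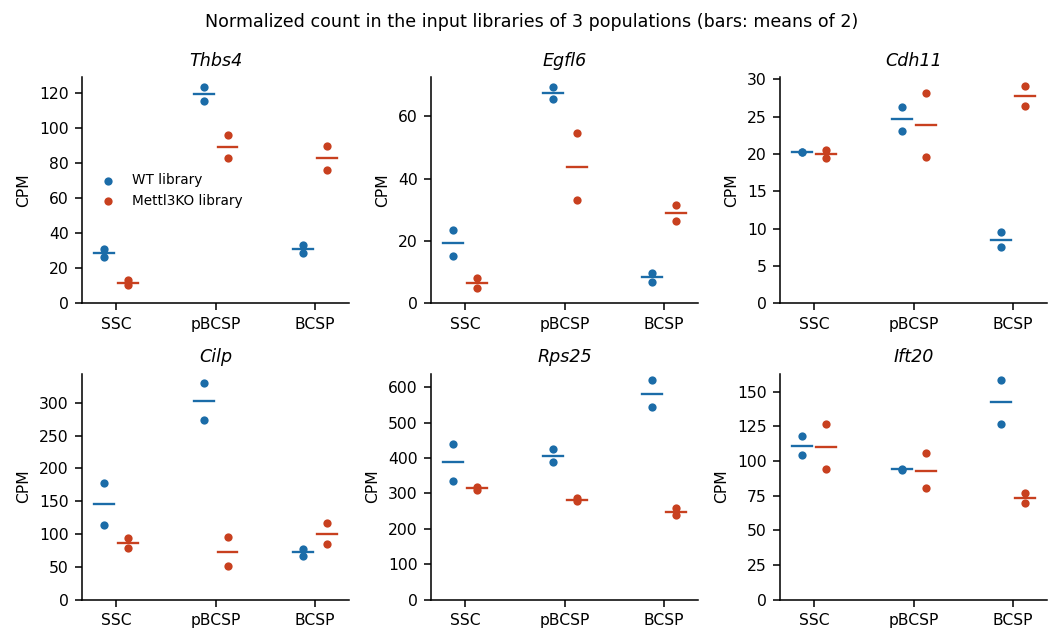
Normalised counts (CPM, scaled over 12 libraries) of 6 genes in the input libraries of SSC, pBCSP and BCSP, WT in blue and Mettl3KO in red, with bars at the means of 2 libraries. Thbs4 and Egfl6 lie higher in Mettl3KO in BCSP and lower in SSC, whereas Rps25 and Ift20 lie lower in Mettl3KO in BCSP with smaller or no shifts elsewhere.

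By list, 12 of 87 ribosomal protein genes and 10 of 73 oxidative phosphorylation genes had a lower change in BCSP than in the other populations, beside 2.09% of all genes. The ribosomal protein median was -0.46 in SSC and -0.14 in pBCSP, and oxidative phosphorylation was at -0.20 and 0.16. In SSC 36 of 87 ribosomal protein genes and 7 of 73 oxidative phosphorylation genes were called lower, beside 7.07% of all genes. In pBCSP 4 of 86 and 0 of 73 were called lower, beside 4.48%. The list counts of the difference were not repeated without each library. Of the tendon, joint and perichondrial list 6 of 20 members differed upwards, beside 3.31% of all genes, with medians of -0.36 and 0.22 in SSC and pBCSP. Mitosis genes had medians of 0.77 and 0.81 there and no member of that list differed in either direction.

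The m6A IP libraries of BCSP were made from RNA of the same sorted populations, and the genotype change was also read in them. They held 32196964 and 30486055 counts in WT and 33126857 and 23517950 in Mettl3KO. Genes with a count numbered 17914 and 16997 in WT and 14415 and 13991 in Mettl3KO. The part of this difference in the calls was not tested. Of 14291 genes 427 were called higher (2.99%) and 1291 lower (9.03%), and the counts moved widely when a library was left out, from 164 without WT replicate 2 to 1137 without Mettl3KO replicate 2 for higher genes and from 100 without WT replicate 1 to 2227 without Mettl3KO replicate 1 for lower genes. No gene passed an adjusted p of 0.05 in edgeR, where 427 higher and 1291 lower genes had an unadjusted p under 0.05, and DESeq2 called 149 and 308 at the adjusted threshold. The genes that rose in BCSP input had a median IP change of 0.54 and those that fell -0.45, against -0.03 over all genes. Errfi1 was at 1.15 in IP, Col1a1 at 1.27 and Cytl1 at -2.17. Ribosomal protein transcripts did not follow, with a median of 0.11 in IP and 0 of 87 members called lower.

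Transcripts that carry m6A were defined in libraries outside the BCSP comparison, as genes that passed a log2 ratio (IP to input) of 1 and an unadjusted p of 0.05 in WT SSC and also in WT pBCSP. Of 14606 genes 1087 were tagged (7.44%). Tagged genes made up 17 of the 1059 genes that rose in BCSP (1.61%) and 172 of the 839 that fell (20.5%). The median log2 fold change in BCSP was -0.34 for tagged and 0.02 for other genes. Tagged genes were expressed at a median of 22.5 CPM in WT BCSP against 11.4 CPM for the others, and had a median exonic length of 4743 against 4136 bases, and the part of level and length in these shares was not tested. With tags from WT BCSP, which shares its input libraries with the comparison, the shares were 3.13% and 19.5%, and with tags at an adjusted p under 0.05 they were 0.661% and 13.7%.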

How the data were processed

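The deposited table holds raw counts per gene that the authors made from input and m6A IP libraries, of which 4 BCSP input libraries carry the main comparison. Per the study's methods, RNA was amplified by a Smart-seq2 based protocol without molecular identifiers, reads were trimmed with fastp 0.20.1 and aligned to GRCm38 with HISAT2 2.2.1, and featureCounts 2.0.1 counted genes. The annotation, the strand setting and the treatment of reads with several alignments are not given in the sources used here. The other deposited tables hold the authors' own SSC comparisons (fold changes and p-values) and were not used.

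Of 46959 entries, 128 with 2 repeated date-like names were left out. Genes passing filterByExpr were scaled by TMM and tested with the edgeR 4.0.16 quasi-likelihood F test (R 4.3.3), 2 against 2 libraries, with Benjamini-Hochberg adjustment over all genes tested. Prior count was 2. A gene was called at an absolute log2 fold change above 0.5 and an unadjusted p under 0.05, and separately at an adjusted p under 0.05. DESeq2 1.42.0, limma-voom (limma 3.58.1), other scalings, filters, a replicate block and leaving out each library were alternatives, and the scripts were tested on simulated data. Positions are from GENCODE vM21 on GRCm38, which matched 44784 of 46831 symbols. Promoter windows are from RefSeq.

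Named genes were Mettl3, the genes the study names, the 12 protein-coding genes of smallest p per direction at 5 CPM or more without overlap, up to 4 called members of each list, and 5 genes per direction of the difference test. Not every gene so chosen is described, and some are not reported here. Members and lists were chosen with earlier results of these data known. A gene named only as part of a count of 5 or fewer was chosen after its values were seen.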

Additional observations from a re-analysis of the deposited data

Results flagged for a closer look

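The change of Thbs4 upon Mettl3 deletion differed between populations in the test of the difference itself, with 2.26 on the log2 scale for BCSP minus the mean of SSC and pBCSP (SE 0.27, adjusted p = 0.0364 by edgeR). Its change was 1.43 in BCSP, -1.29 in SSC and -0.42 in pBCSP, and it missed the adjusted threshold without each BCSP replicate in turn (0.0964 to 0.549). Groups held 2 libraries each, which was too few to look for single libraries that stand apart.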

How the results depend on the processing

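In BCSP input the numbers of genes higher and lower stayed within 1.5 times of 1178 and 933 under every alternative that kept the 4 libraries, and without each library in turn they ranged from 959 to 1105 and from 485 to 1170. At an adjusted p under 0.05 they moved from 0 and 0 to 346 and 234 in DESeq2, 7 and 6 in limma-voom, 332 and 208 with no filter, 133 and 77 at 5 CPM or more, and 8 and 4 with 12 libraries in the fit, and ranged from 0 to 82 and from 0 to 41 without each library. The causes were not tested. Library size alone and DESeq2 size factors moved the median over all genes by under 0.1. Of 112 genes called and followed by name, 70 kept their call under all 15 alternatives, 6 were not tested under 1 or more of these and kept it under the rest, 34 lost it without a library and 2 under another alternative alone. Of genes not called, Cdk6 ranged from -0.34 to 0.68, Ccnd1 from -0.22 to 0.31, Cdk4 from -0.52 to 0.015, Col2a1 from -0.30 to 0.064 and Sox9 from -0.12 to 0.19 without each library, and Sox9 was at -0.0018 with upper quartile factors. The ribosomal protein genes that fell ranged from 20 to 75, the mitosis genes that rose from 4 to 12 and the tendon, joint and perichondrial genes that rose from 8 to 10 without each library. The difference of BCSP from the other populations gave 981 genes higher with no filter, and without each library 491 to 721 higher and 209 to 548 lower. At an adjusted p it gave 15 and 3 in DESeq2, 22 and 4 with no filter, and 0 higher with library size alone and without each library. In the IP libraries DESeq2 called 694 genes higher, and 149 higher and 308 lower at an adjusted p, and without each library the counts ranged from 164 to 1137 and from 100 to 2227, and from 0 to 41 and 0 to 194 at an adjusted p. Tagged shares moved to 3.13% of higher genes with tags from WT BCSP, and to 0.661% and 13.7% with tags at an adjusted p.

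The replicate numbers are not stated to pair libraries, and deviations of same-numbered libraries from their genotype means correlated at -0.0014 across genes. With the replicate number as a block, the counts at an adjusted p were 32 higher and 14 lower in BCSP, the mitosis genes that rose were 12, and no gene passed for the difference between populations. With 2 libraries a genotype, 1 library decides many calls, and amplified counts without molecular identifiers carry error beyond counting.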

Other observations

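Among lists not described above, the Wnt list had 5 of 34 members lower and 1 higher (background 5.72% and 7.22%), with 3 lower without WT replicate 1 and 2 without WT replicate 2. Apc, a scaffold of the beta-catenin destruction complex, fell by 1.37 on the log2 scale. Of 32 proteasome genes 2 fell and none rose, with a median of -0.11, and none fell without WT replicate 1 or Mettl3KO replicate 2 and 4 without WT replicate 2. Of 25 skeletal progenitor markers 2 fell and none rose, with a median of 0.01, and none fell without Mettl3KO replicate 1, 1 without either WT library and 4 without Mettl3KO replicate 2.

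Ribosomal protein mRNAs are known for a start of C followed by a run of pyrimidines. In RefSeq annotation 14 of 64 ribosomal protein genes with a promoter window (21.9%) began with C and 4 pyrimidines, as did 3.06% of all genes tested. The annotated starts may differ from those used in BCSP, and no change was related to them.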
